A study of Mus musculus with 6 samples.

Results

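Pisd and its pseudogenes were followed in mouse brainstem together with the genes that make phosphatidylethanolamine. Every row named Pisd or Pisd-ps was taken, which gave 3 rows (Pisd, Pisd-ps1 and Pisd-ps2), and 5 genes were added for their role (Ptdss1, Ptdss2, Etnk1, Pcyt2 and Pemt), so that 8 of the 18058 genes in the table are described. Pisd-ps1 came to attention because it differed between the genotypes in these same libraries. Its values, and any sum or share that holds it, are therefore given as a description with no test. The other 7 genes were chosen by name or role. Pisd-ps2 shares sequence with Pisd-ps1 and is not an independent measurement of it.

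Total RNA was sequenced from snap-frozen whole brainstem, all of it from mice 1 month old. There were 3 wild type samples (WT, C57BL/6J) and 3 labelled Rag1-/- (B6.129S7-Rag1tm1Mom/J). The labels do not say whether each sample is 1 animal, and each library was treated as an independent replicate. The Rag1-/- strain carries a germline disruption of the recombinase gene and lacks mature T and B cells, and the labels give no treatment for either group. The comparison is between the brainstem of this immunodeficient strain and that of WT. Per the study's methods, mice were mated within a genotype. The loss of Rag1 can therefore not be told apart from strain background or litter. Levels are in CPM, the read count of a gene scaled to the size of its library.

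Phosphatidylethanolamine is a major phospholipid of brain membranes. It is made in the inner mitochondrial membrane, where Pisd removes the carboxyl group of phosphatidylserine, and in the endoplasmic reticulum by the CDP-ethanolamine pathway. Phosphatidylserine itself is made by base exchange, and phosphatidylethanolamine can in turn be methylated to phosphatidylcholine, mainly in liver. A pseudogene is a copy of a gene that is not known to encode the full protein, but it can still be transcribed.

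The copies lie on 3 chromosomes. Pisd lies on chromosome 5 (32736301 to 32785626, minus strand, mm10), Pisd-ps1 on chromosome 11 (3124021 to 3131944, plus strand) and Pisd-ps2 on chromosome 17 (3064318 to 3084183, minus strand). RefSeq lists both pseudogenes as transcribed, and GENCODE M21 classes them as transcribed unprocessed pseudogenes. Pisd-ps3, which RefSeq places on no chromosome, was not analysed here. To show how alike the copies are, 120 bases of the Pisd coding sequence are printed beside the same stretch of both pseudogenes, chosen as the gap-free stretch within 1 exon of each with the most bases identical in all 3. Capitals mark the positions at which the copies differ. The stretch lies in exon 5 of transcript Pisd-203 (chr5:32739214-32739333, minus strand), exon 3 of the longest Pisd-ps1 transcript (chr11:3128969-3129088, plus strand) and exon 3 of Pisd-ps2-202 (chr17:3079432-3079551, minus strand), all in GENCODE M21 on mm10, and reads 5′ to 3′:
Pisd: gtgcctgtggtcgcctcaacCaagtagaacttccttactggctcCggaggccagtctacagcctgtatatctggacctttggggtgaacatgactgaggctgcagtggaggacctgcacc
Pisd-ps1: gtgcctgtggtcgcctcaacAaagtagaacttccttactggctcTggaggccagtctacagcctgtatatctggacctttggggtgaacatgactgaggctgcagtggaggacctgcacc
Pisd-ps2: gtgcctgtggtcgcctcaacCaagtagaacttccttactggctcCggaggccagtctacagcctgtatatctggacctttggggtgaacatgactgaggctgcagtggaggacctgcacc

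Of these 120 positions, 118 were identical in all 3 copies. Counted from 1 at the 5′ end, Pisd-ps1 differed from Pisd by C21A and C45T, and Pisd-ps2 did not differ from Pisd. Over the longer alignment, that Pisd-ps1 transcript matched the Pisd coding sequence at 1059 of 1125 columns (94.1%), with 97 bases as the longest identical run. Pisd-ps2-202 matched it at 1007 of 1071 columns (94.0%), with a longest run of 139 bases. The pseudogenes matched each other at 1006 of 1061 columns (94.8%), with a longest run of 81 bases. The differences are thus spread so that a short read can fit more than 1 copy.

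How many reads could do so depends on their length and on the mismatches allowed in alignment. Neither is given in the sources used here. The shares that follow count exact matches between GENCODE M21 transcripts only. For stretches of 50 bases, 11.4% of those in the Pisd-ps1 transcripts, 11.7% of those in Pisd-ps2 and 4.90% of those in Pisd occurred unchanged in another of the 3 copies. At 75 bases these shares were 2.60%, 4.64% and 2.17%. At 100 bases no stretch of Pisd-ps1 was shared with Pisd or Pisd-ps2, whereas 1.84% of the Pisd-ps2 stretches still were. None of the 5 genes picked by role shared a stretch of 50 bases with any other of the 8. Gm20671, a GENCODE gene that was not analysed here, held 17.9% of the 50-base stretches of Pisd. The GENCODE model of Pisd-ps1 (3125904 to 3131004) is narrower than the span in the table, so that these shares cover only the part that GENCODE describes.

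The deposited values of the copies were themselves not whole reads. The level that stands for 1 read was estimated in each library, and a level was called whole when it lay within 0.1 read of a whole number. Pisd, Pisd-ps1 and Pisd-ps2 were each whole in 1 of 6 libraries. The level of Pisd-ps1, for example, lay 0.44 read from a whole number in WT 3 and 0.34 read away in the third library labelled Rag1-/-. Ptdss1 was whole in 2 of 6, and Ptdss2, Etnk1, Pcyt2 and Pemt were whole in 6 of 6. Among the 13979 genes between 0.1 and 100 CPM in every library, 79.3% were whole in 6 of 6 libraries and 5.84% in 1 of 6. Ptdss1 shares 2.98% of its 50-base stretches with Mterf3 on the opposite strand. Neither the counting of reads with several alignments nor the use of strand is given in the sources used here, and the part of shared reads in the results that follow was not tested.

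**Figure D1:**
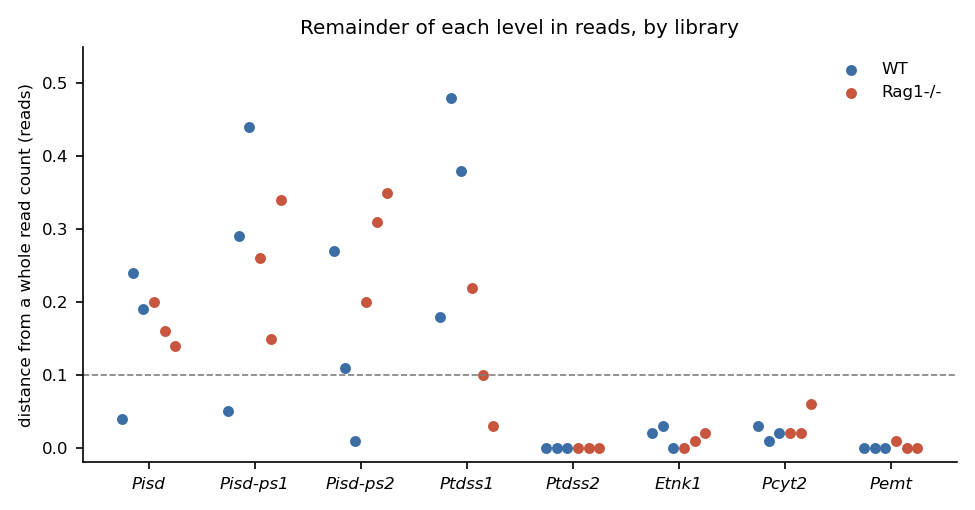
Distance of each level from a whole number of reads (y axis, in reads) for the 8 genes (x axis), with 1 point per library, WT in blue and Rag1-/- in red, and the tolerance of 0.1 read as a dashed line. The 3 Pisd copies and Ptdss1 lie mostly above the line, and Ptdss2, Etnk1, Pcyt2 and Pemt lie under it in 6 of 6 libraries.

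The libraries were examined before the genes were compared. Estimated depth was 34800000 to 46400000 reads in WT and 31600000 to 35100000 reads in libraries labelled Rag1-/-. Rag1 itself was at 0.115 to 0.388 CPM in WT and at 2.60 to 4.02 CPM in libraries labelled Rag1-/-, against the direction that a loss of the transcript would give, so that these libraries are named by their label. WT 1 and WT 2 had Xist at 172 and 177 CPM and Ddx3y at up to 0.283 CPM, and the other 4 libraries had Xist at up to 2.93 CPM and Ddx3y at 45.2 CPM or more. The sex of the animals is not in the labels. Summed neuron, astrocyte and microglia markers (4 genes each) overlapped between the genotypes, and 6 hindbrain Hox genes summed to 1.46 CPM in the second library labelled Rag1-/- and to 7.81 to 22.9 CPM in the other 5. The 4 oligodendrocyte markers summed to 16321 to 19295 CPM in WT and 21270 to 22752 CPM in libraries labelled Rag1-/-. The 4 pituitary markers reached 56.5 CPM in WT 2 and 654 CPM in WT 3 and were at most 4.91 CPM elsewhere, the 4 choroid plexus markers ranged from 464 CPM in WT 3 to 1198 CPM in WT 2, and the 4 marrow granulocyte markers reached 12.4 CPM in WT 3. No tested gene of these 8 marker lists had an adjusted limma-trend p under 0.05, where 0.0477% of all genes tested did. With so few calls over all genes, this says little about the make-up of the tissue. Of the 4 marrow granulocyte markers, 3 were tested. In whole tissue, fewer cells of a type and less RNA per cell cannot be told apart.

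Pisd-ps1 was at 67.0, 62.7 and 60.8 CPM in WT 1, 2 and 3. In libraries labelled Rag1-/- it was at 25.0, 24.8 and 27.7 CPM. The groups did not overlap, and their nearest values were 60.8 and 27.7 CPM. The means were 63.5 ± 3.14 CPM in WT and 25.8 ± 1.66 CPM in libraries labelled Rag1-/- (SD, n = 3 each), a 2.46-fold lower level and a log2 difference of -1.30 (standard error 0.06) on the scale of log2(CPM + 0.1). Xist and Ddx3y levels of WT 3 were on the side of libraries labelled Rag1-/-. Its Pisd-ps1 level was 60.8 CPM, beside 67.0 and 62.7 CPM in WT 1 and WT 2. With Xist above 100 CPM as a further term in the fit, the log2 difference was -1.23. Only WT 3 tells genotype and this term apart, and the part of sex in the difference was not tested. The higher oligodendrocyte markers of libraries labelled Rag1-/- moved in the opposite direction to Pisd-ps1, and their part in its difference was not tested.

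Pisd-ps2 was lower in level. It was at 9.24, 8.57 and 7.33 CPM in WT 1, 2 and 3, and at 5.15, 5.44 and 4.52 CPM in libraries labelled Rag1-/-. The groups did not overlap. Its mean was 8.38 ± 0.971 CPM in WT and 5.03 ± 0.471 CPM in libraries labelled Rag1-/- (SD, n = 3 each). The log2 difference of -0.72 (standard error 0.11, 95% interval -0.98 to -0.46) did not pass the threshold of 0.05 (unadjusted p = 0.000173, adjusted p = 0.161 by limma-trend). Without WT 3 the log2 difference was -0.81 and the adjusted p was 0.0471. WT 3 had the most pituitary transcript and was the WT library with low Xist and high Ddx3y, so that without it genotype and Xist cannot be told apart. With the term for Xist, the log2 difference of Pisd-ps2 was -0.54 (adjusted p = 0.123 by limma-trend), and over the other alternatives run the adjusted p was at most 0.481.

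Pisd, the gene that encodes the decarboxylase, was at 47.8, 49.9 and 45.1 CPM in WT and at 46.1, 45.3 and 44.0 CPM in libraries labelled Rag1-/-. These ranges overlapped. The log2 difference was -0.08 (standard error 0.05, adjusted p = 0.573 by limma-trend), with a 95% interval of -0.19 to 0.04. On the linear scale this interval runs from 0.875 to 1.03 times the WT level. With the term for Xist the difference was 0.00013, and it was -0.03 under both quantile normalization and median-of-ratios rescaling.

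**Figure D2:**
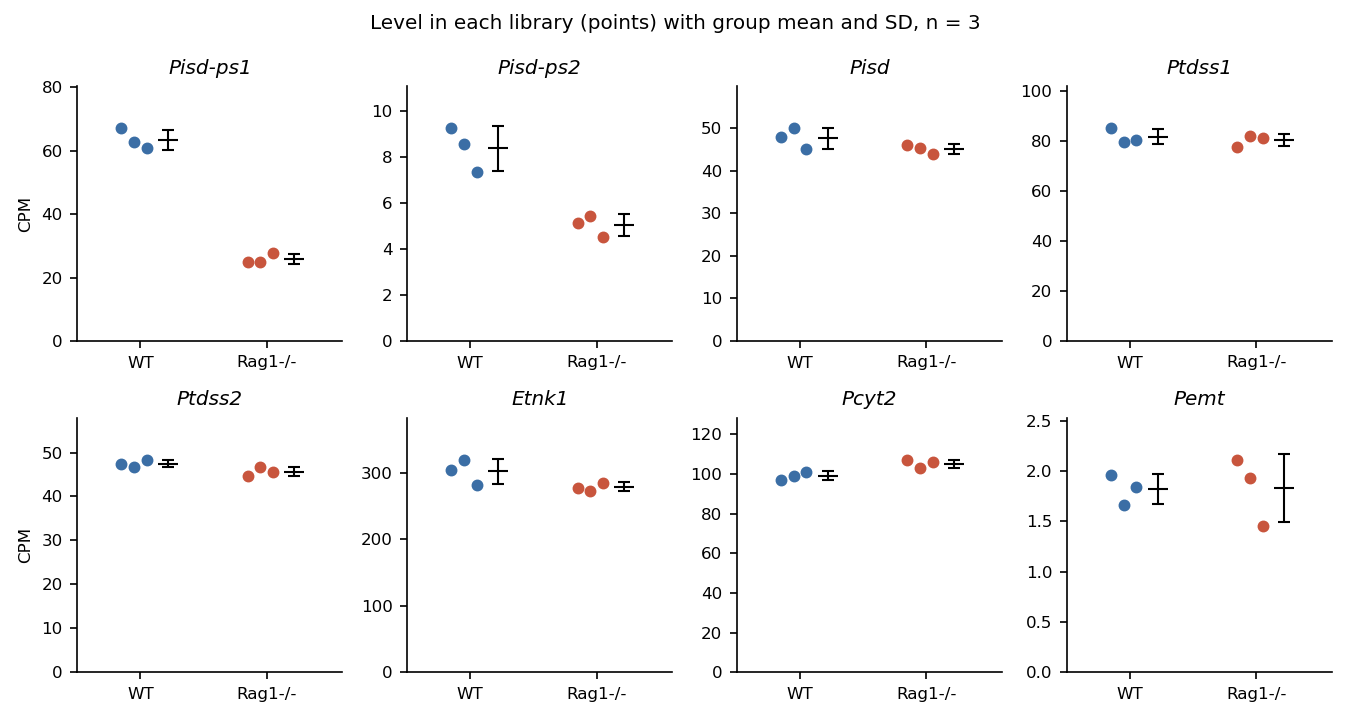
CPM (y axis, from 0) of the 8 genes in each library, WT in blue and Rag1-/- in red, with the mean and SD of each group in black (n = 3). The groups are apart for Pisd-ps1 (60.8 to 67.0 against 24.8 to 27.7 CPM) and Pisd-ps2 (7.33 to 9.24 against 4.52 to 5.44 CPM) and overlap for Pisd.

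The levels of the copies were also summed. Pisd and Pisd-ps2 together were at 57.0, 58.5 and 52.4 CPM in WT and at 51.3, 50.7 and 48.5 CPM in libraries labelled Rag1-/-. The mean difference was -5.84 CPM, with p = 0.1 by an exact permutation test (two-sided), which cannot go lower with 3 against 3. It was -4.16 CPM after median-of-ratios rescaling (exact p = 0.2) and -4.00 CPM after quantile normalization (exact p = 0.3), and the groups then overlapped. All 3 copies together were at 124, 121 and 113 CPM in WT and at 76.2, 75.5 and 76.2 CPM in libraries labelled Rag1-/-. Their mean was 119 ± 5.57 CPM in WT and 76.0 ± 0.439 CPM in libraries labelled Rag1-/- (SD, n = 3 each), a difference of -43.5 CPM, of which Pisd-ps1 accounted for -37.7 CPM, Pisd-ps2 for -3.35 CPM and Pisd for -2.49 CPM. Gm20671 and Pisd-ps3 have no row of their own in the table. Where Gm20671 lies relative to Pisd was not examined, so whether its reads count in the Pisd row is not known.

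The make-up of the sum also differed. Pisd-ps1 held 54.0%, 51.7% and 53.7% of it in WT 1, 2 and 3, and 32.8%, 32.8% and 36.4% in libraries labelled Rag1-/-. The share of Pisd was 38.5% to 41.2% in WT and 57.7% to 60.5% in libraries labelled Rag1-/-. The share of Pisd-ps2 overlapped, at 6.47% to 7.45% and 5.93% to 7.21%. The ratio of Pisd-ps1 to Pisd was 1.26 to 1.40 in WT and 0.542 to 0.631 in libraries labelled Rag1-/-. Over the 6 libraries, log2 levels of Pisd-ps1 and Pisd-ps2 had a Pearson r of 0.939, those of Pisd and Pisd-ps2 of 0.778, and those of Pisd and Pisd-ps1 of 0.622. These points share their libraries and, in part, their sequence, and the genotype difference of the pseudogenes enters them.

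**Figure D3:**
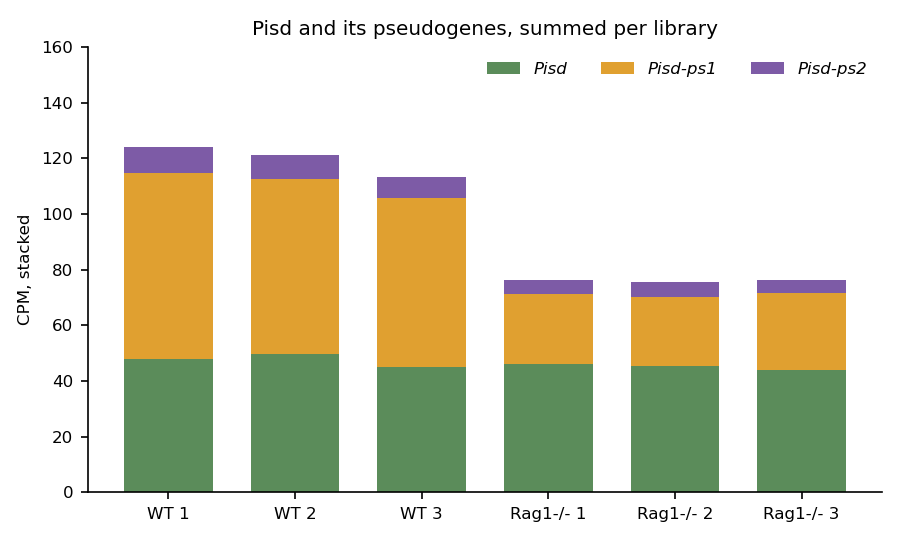
Stacked CPM (y axis, from 0) of Pisd (green), Pisd-ps1 (yellow) and Pisd-ps2 (purple) in each of the 6 libraries (x axis). The bars reach 113 to 124 CPM in WT and 75.5 to 76.2 CPM in libraries labelled Rag1-/-, with the Pisd segment between 44.0 and 49.9 CPM in all 6.

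The 2 phosphatidylserine synthases supply the substrate of Pisd. Ptdss1, which exchanges the head group of phosphatidylcholine for serine, was at 84.9, 79.4 and 80.3 CPM in WT and at 77.7, 82.0 and 81.0 CPM in libraries labelled Rag1-/-. The ranges overlapped and the log2 difference was -0.02 (standard error 0.04, adjusted p = 0.861 by limma-trend). Ptdss2, which uses phosphatidylethanolamine instead, was at 47.3, 46.8 and 48.3 CPM in WT and at 44.7, 46.7 and 45.5 CPM in libraries labelled Rag1-/-. Its groups stood apart by a margin of 46.8 to 46.7 CPM, and its log2 difference of -0.06 (95% interval -0.15 to 0.04) did not pass the test (adjusted p = 0.612 by limma-trend). For Ptdss2 it was -0.01 under both quantile normalization and median-of-ratios rescaling.

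The CDP-ethanolamine pathway makes phosphatidylethanolamine without Pisd. Etnk1, the kinase of its opening step, was at 304, 319 and 282 CPM in WT and at 277, 273 and 285 CPM in libraries labelled Rag1-/-. The groups overlapped at WT 3, and the log2 difference was -0.11 (95% interval -0.23 to 0.01, adjusted p = 0.446 by limma-trend). For Etnk1 it was -0.02 with the term for Xist and lay between -0.16 without WT 3 and -0.07 without WT 2. Pcyt2, the enzyme of its rate-limiting step, was at 97.1, 98.8 and 101 CPM in WT and at 107, 103 and 106 CPM in libraries labelled Rag1-/-. It was the 1 gene of the 8 whose 3 values were higher in libraries labelled Rag1-/- than in each WT library, with a log2 difference of 0.09 (95% interval -0.00037 to 0.18) and an adjusted p of 0.433 by limma-trend. Pemt, the methyltransferase that turns phosphatidylethanolamine into phosphatidylcholine, was near the low end of the range at 1.96, 1.66 and 1.84 CPM in WT and 2.11, 1.93 and 1.45 CPM in libraries labelled Rag1-/-. Its values rest on an estimated 51 to 83 reads per library, and the 95% interval of its difference, 0.764 to 1.30 times the WT level, is the widest of the 8 on the log2 scale.

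Read against all genes, 0 of the 7 genes other than Pisd-ps1 had an adjusted limma-trend p under 0.05, where 0.0477% of the 16762 genes tested did (0.0358% lower and 0.0119% higher in libraries labelled Rag1-/-). An unadjusted p under 0.05 was found for 1 of the 7, Pisd-ps2, and for 11.6% of all genes tested. The groups did not overlap for Pisd-ps2 and Ptdss2 in the lower direction, 2 of 7 against 14.4% of all genes, and for Pcyt2 in the higher direction, 1 of 7 against 3.98%. All 8 genes passed the filter on low values. The 5 genes picked by role had log2 differences from -0.11 to 0.09 with a median of -0.02, beside a median of -0.05 over all genes tested.

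Per kilobase of the longest RefSeq-matched transcript, the level in WT was 52.7 ± 1.17 CPM for Pcyt2, 46.9 ± 2.91 for Etnk1, 23.8 ± 0.867 for Ptdss1 and 19.1 ± 0.969 for Pisd (SD, n = 3). Ptdss2 followed at 13.1 ± 0.208, Pisd-ps2 at 7.13 ± 0.827 and Pemt at 1.81 ± 0.151 CPM per kilobase. Each step in this order exceeded the SDs on either side, but the order depends on the transcript taken as the length. Pisd-ps1 has no RefSeq-matched transcript in GENCODE M21 and was left out of it.

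The wider phospholipid pathway was described with a list of 33 genes in 7 groups, which holds 6 of the 8 genes above. All 33 were tested, and 0 passed an adjusted limma-trend p of 0.05 in either direction. An unadjusted p under 0.05 was found for 1 lower and 1 higher gene, against 9.29% and 2.27% of all genes. The median log2 difference was -0.02, and 18 genes were below 0 and 15 above, beside a median of -0.05 with 11340 genes below 0 and 5422 above among all genes tested. That all-gene median was -0.006 after median-of-ratios rescaling and 0.002 after quantile normalization. The groups did not overlap for 4 of 33 genes in the lower direction (14.4% of all genes) and for 3 in the higher direction (3.98%).

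By group, the CDP-ethanolamine genes ranged from -0.14 for Selenoi to 0.09 for Pcyt2. Selenoi, the ethanolamine phosphotransferase that completes the pathway, had the lowest log2 difference of the list. It was at 67.9, 70.2 and 67.2 CPM in WT and at 59.0, 64.3 and 63.2 CPM in libraries labelled Rag1-/- (unadjusted p = 0.0165, adjusted p = 0.371 by limma-trend). The CDP-choline and methylation genes ran from -0.12 for Chka to 0.13 for Chpt1, and 6 of 6 overlapped between the groups. The choline and ethanolamine transporters ran from -0.07 for Flvcr1 to 0.12 for Slc44a1. Genes of mitochondrial phospholipid transfer, which bring lipid to the membrane where Pisd acts, ran from -0.11 for Triap1 to 0.08 for Prelid1.

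The cardiolipin genes, whose product shares the inner mitochondrial membrane with Pisd, ran from -0.02 for Pgs1 to 0.15 for Ptpmt1, with 0 of 5 past the threshold. Ptpmt1, a phosphatase of cardiolipin synthesis, had the highest log2 difference of the list. It was at 18.9, 20.2 and 19.5 CPM in WT and at 23.3, 20.2 and 21.9 CPM in libraries labelled Rag1-/- (unadjusted p = 0.0467, adjusted p = 0.429 by limma-trend). Genes of phosphatidylethanolamine turnover and lysophospholipid acylation ran from -0.13 for Etnppl to 0.03 for Napepld. The 27 listed genes that are not among the 8 had log2 differences no further from 0 than -0.14 and 0.15, and those of Pisd-ps2 and Pisd-ps1 were -0.72 and -1.30.

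**Figure D4:**
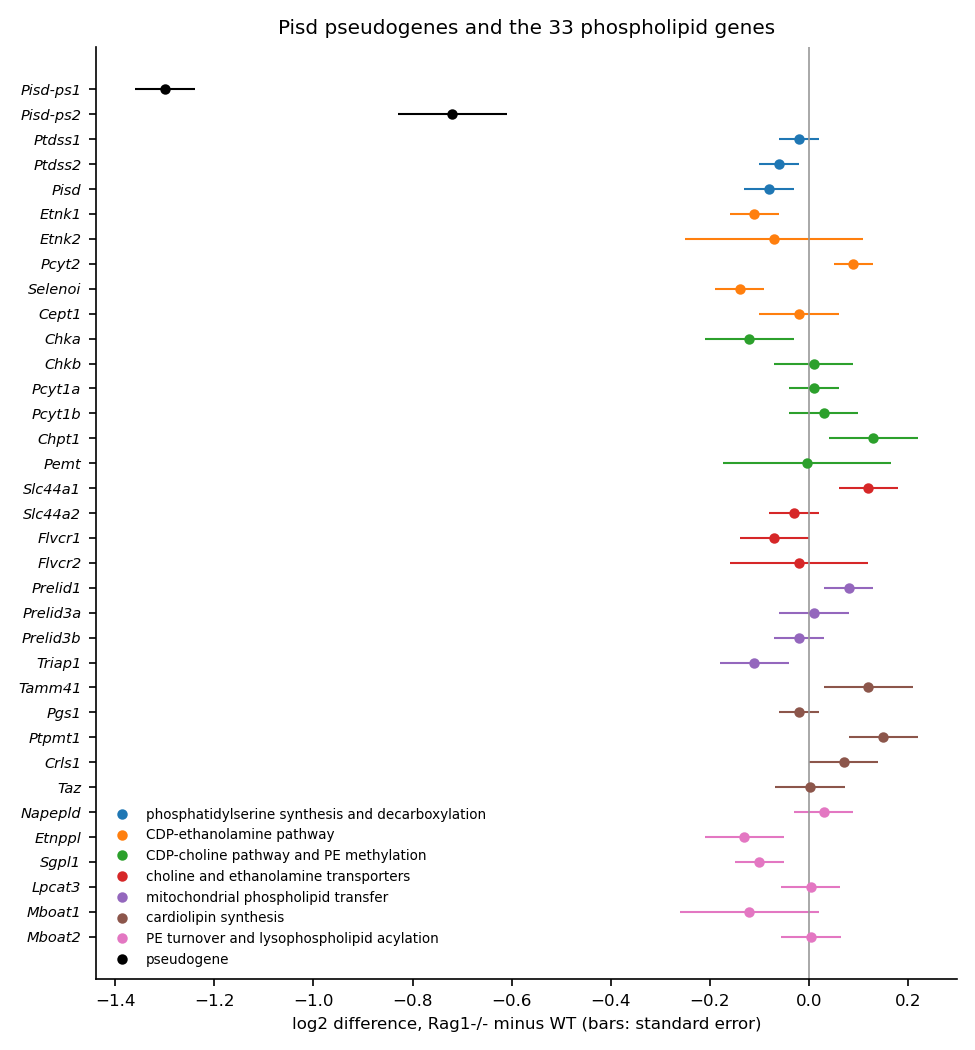
Log2 difference between Rag1-/- and WT (x axis, points with standard error) for the 2 Pisd pseudogenes and the 33 phospholipid genes (y axis), coloured by group. The 33 genes lie between -0.14 and 0.15, and Pisd-ps2 and Pisd-ps1 lie at -0.72 and -1.30.

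Genes beside the copies were examined for a difference that extends over the locus. Pisd-ps1 is the gene nearest the start of chromosome 11 in the table, so that its neighbours lie on the distal side only. The nearest is Sfi1, which starts at 3131850 on the minus strand and shares 95 bases with the end of Pisd-ps1. Sfi1 was at 6.59, 6.54 and 7.68 CPM in WT and at 6.87, 6.17 and 6.66 CPM in libraries labelled Rag1-/-. The ranges overlapped, with a log2 difference of -0.08 (adjusted p = 0.776 by limma-trend). Since strand use is not given, reads from the shared bases cannot be told apart, and their part in the level of either gene was not tested.

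The next genes, Eif4enif1 at 70.4 kb and Drg1 at 118 kb, had log2 differences of -0.10 and -0.04, with adjusted limma-trend p of 0.518 and 0.764. Within 500 kb of Pisd-ps1, 0 of 13 genes passed the threshold, against 0.0477% of all genes tested, and the median was -0.04. In the lower direction, 1 of the 13 had an unadjusted p under 0.05 (9.29% of all genes). Groups that did not overlap were also found for 1 in that direction (14.4%). In both cases this was Pik3ip1, named after its value was seen, with a log2 difference of -0.14. Within 1000 kb, 0 of 26 genes passed, 3 lower and 1 higher had an unadjusted p under 0.05 (9.29% and 2.27% of all genes), and the groups did not overlap for 5 in the lower direction (14.4% of all genes) and 1 in the higher (3.98%). The lowest log2 difference there was -0.84 for Sec14l3, also named after its value was seen. Beside Pisd-ps2, also the gene nearest the start of its chromosome in the table, Scaf8 at 30.8 kb, Tiam2 at 242 kb and Tfb1m at 435 kb had log2 differences of -0.10, -0.13 and 0.07. Scaf8 was the 1 of these 3 with an unadjusted p under 0.05 (0.0446 by limma-trend, adjusted p = 0.426) and groups that did not overlap. Around Pisd, Yes1, Ppp1cb and Plb1 on the proximal side had 0.07, -0.00053 and 0.34, and Prr14l, Depdc5 and Ywhah on the distal side had -0.10, -0.13 and -0.01. Depdc5 was the 1 of these 6 with an unadjusted p under 0.05 (0.0247 by limma-trend, adjusted p = 0.384) and groups that did not overlap. Beside these counts, 11.6% of all genes tested had an unadjusted p under 0.05 and 18.4% had groups that did not overlap. Plb1 was at most 0.222 CPM in any library. None of the neighbours named here had an adjusted limma-trend p under 0.05.

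**Figure D5:**
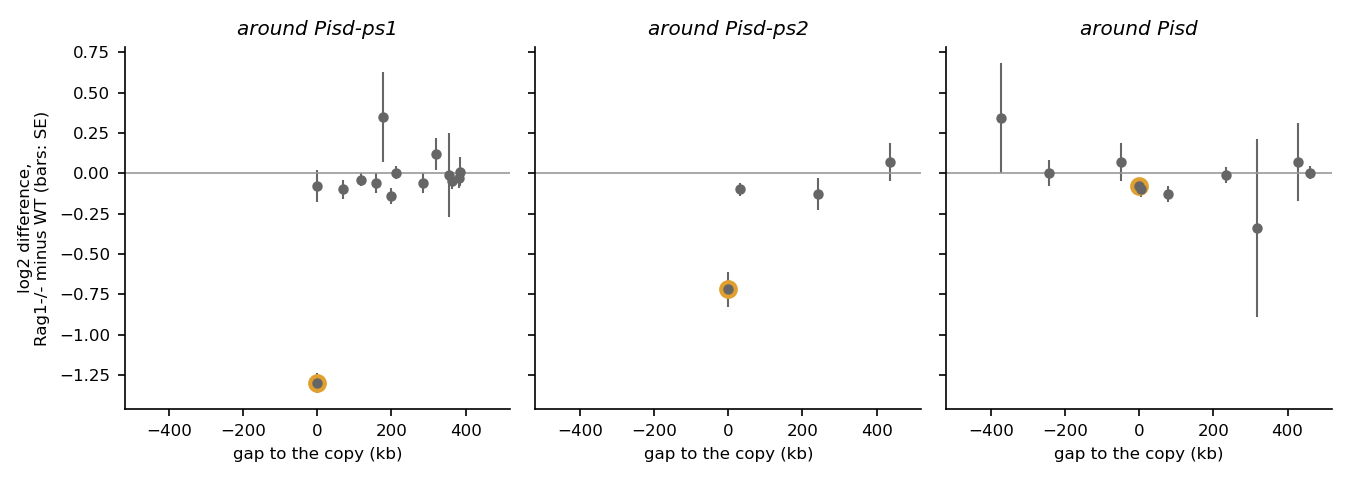
Log2 difference between Rag1-/- and WT (y axis, points with standard error) against the gap in kb (x axis) for the tested genes within 500 kb of Pisd-ps1, Pisd-ps2 and Pisd, with the copy itself in yellow. Pisd-ps1 at -1.30 and Pisd-ps2 at -0.72 lie under their neighbours, and Pisd at -0.08 lies among them.

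The genes whose pattern over the 6 libraries was most like that of Pisd-ps1 were Usp18, Rab3gap1, Ncbp3, Herc6 and Lonrf2, with a Pearson r of 0.995 to 0.999 on log2 levels among 14033 genes averaging 1 CPM or more. Their log2 differences were -0.99, -0.15, -0.11, -0.49 and -0.19. Usp18 was at 3.04, 2.82 and 2.90 CPM in WT and at 1.36, 1.36 and 1.54 CPM in libraries labelled Rag1-/-. For Pisd the 5 were Hspa13, Ahcy, Itgam, Abca4 and Cc2d2a, with r of 0.979 to 0.996. With 6 libraries and this many genes, such values of r are a description only. Because Pisd-ps1 differed between the genotypes, the genes most like it were bound to be lower in libraries labelled Rag1-/-.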

How the data were processed

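Per the labels and the study's methods, the authors aligned brainstem reads to mm10 with STAR 2.5.3a, used Partek Flow for counts per RefSeq gene, and deposited these as CPM. Read length, strand use and the treatment of reads with several alignments are not given in the sources used here. The CPM of 1 read was estimated from steps among low values. Between 84.9% and 86.1% of values from 0.1 to 100 CPM were whole reads within 0.1 read, which is too few to recover read counts, and no count test was run. log2(CPM + 0.1) of the 16762 genes averaging 0.1 CPM or more was tested with limma-trend (limma 3.58.1, R 4.3.3; simulated data were used to check it), adjusted by Benjamini-Hochberg over all of them. Fold changes of low genes are understated by the pseudocount. Summed levels were tested with an exact permutation test (scipy 1.17.1). Shared stretches and alignments came from GENCODE M21 transcripts (Biopython 1.88; MAFFT). Genes named were the 8 members, called and extreme genes of the phospholipid list (and of its groups, added after their values were seen), the 3 nearest tested genes on each side of Pisd-ps1 and Pisd (and of Pisd-ps2, added later), the 5 most alike in pattern to Pisd-ps1 and to Pisd, and Rag1, Xist and Ddx3y. Outside this rule, Pik3ip1, Sec14l3, Gm20671 and Mterf3 were named after their values were seen. Members and lists were chosen with earlier results of these data known. The alternatives were other pseudocounts, filters, scalings and variance models, a replicate block, a term for Xist, and leaving out each library.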

Additional observations from a re-analysis of the deposited data

How the results depend on the processing

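The log2 difference of Pisd-ps1 lay between -1.35 and -1.23 over 16 alternatives, and between -1.35 and -1.26 when each library was left out. For Pisd it lay between -0.11 and -0.04 with a library left out, and it turned to 0.00013 with the term for Xist over 100 CPM. With the 3 copies summed into 1 row before the fit, the log2 difference was -0.65, which follows from the sum holding Pisd-ps1. The number of the 7 other members past the threshold was 0 to 1 when each library was left out, and the 1 was Pisd-ps2 without WT 3. It was 0 under the other alternatives, as were the counts for the phospholipid genes and the neighbours of Pisd-ps1 under every alternative run. Over all genes, 8 were called, against 134 with the term for Xist, 24 without WT 3, 2 without the first or the third library labelled Rag1-/-, 5 without the second, 9 with a pseudocount of 1, 6 by median-of-ratios rescaling (3 lower, 3 higher), 5 by quantile normalization (3 lower, 2 higher), 4 with a pseudocount of 0.01, with no filter or with a mean CPM of at least 1, 2 without the trend and 0 with ordinary per-gene variance. Ptdss1 turned to 0.02 under quantile normalization and under median-of-ratios rescaling, to 0.01 without WT 1 and to 0.00018 without the first library labelled Rag1-/-. Pemt turned to 0.00039 with a pseudocount of 1, 0.10 by quantile normalization, 0.04 by median-of-ratios rescaling, 0.05 and 0.01 without WT 1 and WT 3, and 0.15 without the third library labelled Rag1-/-. The summed CPM of Pisd and Pisd-ps2 differed by -7.61 to -4.58 CPM with a library left out and by -4.00 CPM under quantile normalization (exact permutation p = 0.300), and the share of Pisd-ps1 by -20.4 to -18.5 percentage points. No copy fell below a mean of 0.1 CPM, so leaving out such copies gave no further value. Few reads lie behind low genes such as Pemt, and the part of depth in its wide interval was not tested.

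Both genotypes carry replicate numbers 1 to 3, but deviations from the group means of same-numbered libraries correlated at 0.0926, -0.22 and -0.0183, so pairing by number was not visible in these values, and no label gives a shared litter, batch or day for a number. Under the replicate block, the log2 difference was -1.30 for Pisd-ps1 and -0.08 for Pisd (adjusted p = 0.687 by limma-trend), 0 of the 7 other members passed, and 3 genes were called in all.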
